A study of Homo sapiens with 12 samples.

Results

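Small nucleolar RNAs and small Cajal body RNAs were followed in MD901, an established human lymphoma line (diffuse large B-cell lymphoma, germinal centre type) with wild-type CREBBP. The members were all rows of the deposited expression table whose gene name begins with SNORD, SNORA or SCARNA and whose mean over the 12 libraries is at least 1 FPKM (a fragment count divided by transcript length and library size). This rule took 79 of 24181 rows. Of these, 60 are H/ACA box small nucleolar RNAs (SNORA) and 19 are small Cajal body RNAs (SCARNA). No row of the table used here begins with SNORD, so the box C/D class has 0 members; 17 rows that begin with another gene also carry a SNORD name. In all, 97 rows begin with these names, 18 of them with a mean below 1 FPKM and 15 listed at 0 in every library. Nearest to this limit, SNORA70G had a mean of 1.58, SNORA77 of 1.49 and SNORA16B of 1.42 FPKM inside it, and SNORA11C of 0.899 and SNORA19 of 0.424 FPKM outside it.

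Small nucleolar RNAs are guides: bound to a core of 4 proteins, they pair with a target RNA and place a chemical mark on it. Box H/ACA RNAs direct pseudouridylation, in which uridine is isomerised by the enzyme dyskerin (DKC1), and box C/D RNAs direct methylation of the ribose by fibrillarin (FBL). Most guides of both classes act on ribosomal RNA in the nucleolus, while small Cajal body RNAs carry the boxes of either class, or of both, and mainly act on the spliceosomal small nuclear RNAs. In human cells most of these RNAs are cut from the introns of host genes, many of which encode ribosomal proteins or translation factors, or are long noncoding RNAs named SNHG.

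The box that sorts a guide is a short stretch of its sequence. The 5 members below are those on which the comparison of the classes turns. The sequences are from GENCODE 29 on GRCh38, at chrX:154400281-154400415 on the plus strand (SNORA70), chr3:39411054-39411206 on the plus strand (SNORA62), chr1:27834401-27834566 on the plus strand (SCARNA1), chr2:233275727-233276002 on the plus strand (SCARNA5) and chr2:233288676-233288940 on the plus strand (SCARNA6). Capitals mark the ACA that stands 3 bases before the 3′ end in the first 3, and box C (TGATGA) and box D (CTGA) in the last 2.
SNORA70: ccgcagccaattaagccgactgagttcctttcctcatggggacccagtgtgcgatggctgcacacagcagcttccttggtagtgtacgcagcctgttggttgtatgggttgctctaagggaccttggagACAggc
SNORA62: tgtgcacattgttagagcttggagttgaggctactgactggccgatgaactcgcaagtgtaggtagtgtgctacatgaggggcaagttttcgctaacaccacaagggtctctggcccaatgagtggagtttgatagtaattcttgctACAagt
SCARNA1: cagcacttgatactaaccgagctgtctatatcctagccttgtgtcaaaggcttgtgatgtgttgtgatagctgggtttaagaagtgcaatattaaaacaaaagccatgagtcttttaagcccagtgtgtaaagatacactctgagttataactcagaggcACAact
SCARNA5: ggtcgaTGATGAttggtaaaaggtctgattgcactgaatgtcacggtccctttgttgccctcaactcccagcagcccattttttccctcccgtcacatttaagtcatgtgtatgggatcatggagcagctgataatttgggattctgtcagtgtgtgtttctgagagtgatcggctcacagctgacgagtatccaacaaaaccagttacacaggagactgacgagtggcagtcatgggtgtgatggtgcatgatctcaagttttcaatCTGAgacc
SCARNA6: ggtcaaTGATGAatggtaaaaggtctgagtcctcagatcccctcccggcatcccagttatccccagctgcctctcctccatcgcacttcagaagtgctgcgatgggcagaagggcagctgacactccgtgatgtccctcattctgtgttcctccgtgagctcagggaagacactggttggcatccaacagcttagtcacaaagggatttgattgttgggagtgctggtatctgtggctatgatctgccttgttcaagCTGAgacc
An ACA at this place was found in 75.2% of the 149 GENCODE transcripts named SNORA, 1.39% of the 288 named SNORD and 2.37% of all 206694 transcripts. Box C within the first 20 bases together with box D within the last 20 bases was found in 64.9% of the SNORD, 0 of the SNORA and 0.141% of all transcripts; both searches read the transcribed strand only. Among the 19 Cajal body members, SCARNA5, SCARNA6, SCARNA7 and SCARNA10 had boxes C and D, 8 had the ACA, and 7 had neither pattern or no sequence in GENCODE. A match to these letters is a description of the sequence. An ACA inside the RNA was not searched for, so members with boxes C and D may also hold an H/ACA domain.

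The cells carried a scramble hairpin or 1 of 3 short hairpin RNAs against CREBBP, which encodes an acetyltransferase of histones: shCREBBP.1027 (the labels also give this hairpin a longer number in another field), shCREBBP.3753 or shCREBBP.572. Each of the 4 groups had 3 libraries, and all cells grew in IMDM with 10% serum. Total RNA was sequenced after removal of ribosomal RNA. The labels describe the RNA as longer than 200 nt, they do not say whether replicates were separate cultures, and they name no batch, so p-values measure the spread between replicate libraries only, and this spread may be technical. CREBBP itself stood at 13.7, 7.10 and 5.82 FPKM with scramble, 11.4, 11.7 and 12.6 with shCREBBP.1027, 5.92, 6.16 and 6.10 with shCREBBP.3753 and 7.99, 7.53 and 6.91 with shCREBBP.572. No hairpin changed it past the threshold used here (limma, adjusted p = 0.104, 0.177 and 0.697), so the libraries are named by their labels. The 7 B cell markers summed to 173 to 352 FPKM and the 7 T and NK cell markers to 1.02 to 3.15 FPKM.

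The members are short. By RefSeq, 57 of the 60 H/ACA members are under 200 nt (range 123 to 250 nt, median 134 nt), and so are 12 of the 19 Cajal body members (125 to 421 nt, median 138 nt). They were nevertheless present at high values: 27 H/ACA and 5 Cajal body members had a mean of at least 100 FPKM. Values of 0 were also common, with 82 zeros on 17 H/ACA rows and 24 zeros on 5 Cajal body rows. FPKM divides by length, and for RNAs this short the division is steep. Lengths shared by at least 4 members were searched for the FPKM that 1 fragment is worth. At 3 of the 5 such lengths, 132, 134 and 135 nt with 16 members in all, every value was a whole multiple of that worth in all 12 libraries (largest distance from a whole number 0.00571), which allowed fragments to be counted. At 132 nt, 1 fragment was worth between 1.49 FPKM in scramble replicate 3 and 5.29 FPKM in scramble replicate 1. A fragment at 132 nt was worth 1.10 to 1.12 times as many FPKM as at 135 nt in the 12 libraries, although the lengths differ by 3 bases. FPKM of members of different length are therefore not read as relative amounts.

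The same unit gives the relative depth of the libraries. Against scramble replicate 1, the shallowest, the depth at 132 nt was 1.07 and 3.56 times in scramble replicates 2 and 3, 1.33 to 1.35 times in the shCREBBP.1027 libraries, 1.45 to 2.24 times in those of shCREBBP.3753 and 1.33 to 1.65 times in those of shCREBBP.572. Fragment numbers behind a member varied widely. SNORA48 rested on 299 to 1914 fragments a library, SNORA70 on 26 to 320 and SCARNA18 on 2 to 19. SNORA5B rested on 15 fragments in all 12 libraries. Scramble replicate 1 also had 16 zeros among the members, the most of any library, and the lowest library weight that limma estimated (0.136). All rows of scramble replicate 3 summed to 4978528 FPKM, against 538076 to 722976 FPKM in the other libraries. Its upper quartile over the tested rows, 27.6 FPKM, equalled that of scramble replicate 2. The cause of the large sum was not tested.

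The plot of class sums shows how the classes moved with each hairpin. The H/ACA members summed to 8409, 12115 and 13216 FPKM with scramble, to 7636, 8624 and 5764 with shCREBBP.1027, to 16398, 15158 and 19055 with shCREBBP.3753 and to 11376, 12069 and 13100 with shCREBBP.572. The shCREBBP.3753 libraries lay above every other library, and the shCREBBP.1027 libraries overlapped with scramble. The Cajal body members summed to 1933, 2790 and 3129 FPKM with scramble, 3275, 4369 and 3974 with shCREBBP.1027, 3754, 3431 and 4055 with shCREBBP.3753 and 2982, 2560 and 3101 with shCREBBP.572. With shCREBBP.1027 the Cajal body sums lay above all scramble sums while the H/ACA sums did not. A few members with high FPKM carry these sums, so each member was tested on its own.

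**Figure D1:**
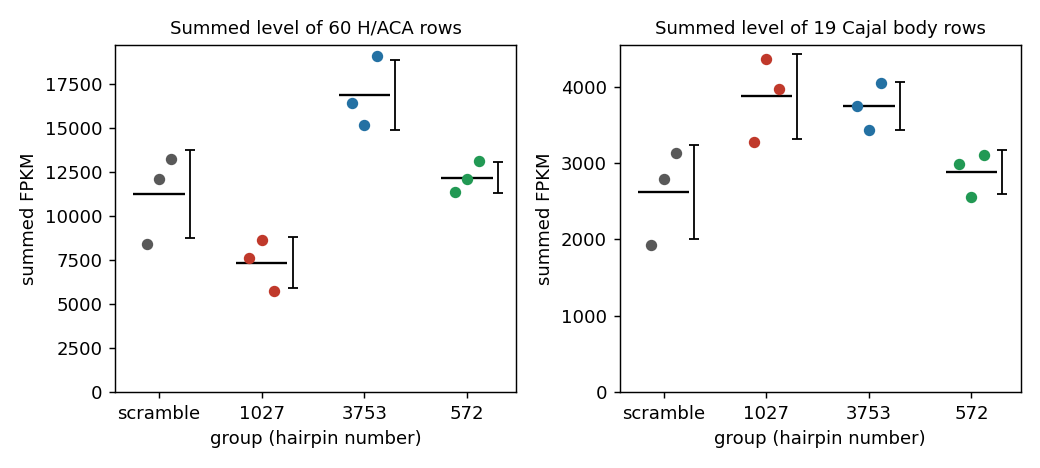
Summed FPKM of the 60 H/ACA rows (left) and the 19 Cajal body rows (right) in each library, by group; the horizontal line is the mean of the 3 libraries and the bar its SD. H/ACA sums run from 5764 to 8624 with shCREBBP.1027 and from 15158 to 19055 with shCREBBP.3753, and Cajal body sums from 3275 to 4369 and from 3431 to 4055.

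With shCREBBP.1027, 18 H/ACA members fell and 4 long Cajal body members rose. The test was limma on log2(FPKM + 1) over the 11757 rows whose mean reached 1 FPKM. The threshold was a Benjamini-Hochberg adjusted p under 0.05. Every difference below is on this scale, in which the added 1 draws ratios of low values toward 0. A single fragment at 132 nt was worth 1.49 to 5.29 FPKM. On rows with zeros a few fragments can therefore give large fitted differences. In bulk RNA, less of an RNA per cell and fewer cells that hold it cannot be told apart. Of the 60 H/ACA members 18 fell (30%, against 22.7% of all tested rows) and 1 rose (against 16.5%). Their median difference was -0.61, against -0.03 over all rows, and 43 of 60 were below 0. Of the 19 Cajal body members 5 fell and 4 rose, with a median of 0.48. The standard error of this contrast was larger for members than for other genes: its median was 0.31 for the 43 H/ACA members without a zero and 0.26 for the 14 such Cajal body members, against 0.13 over all rows. All shCREBBP.1027 libraries lay below all scramble libraries for 17 H/ACA members (28.3%, against 26% of all rows) and 4 Cajal body members. They lay above for 0 H/ACA and 5 Cajal body members (26.3%, against 21.1%).

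SNORA10, which lies in an intron of the ribosomal protein gene RPS2 (locus on hg19 chromosome 16, 2012062 to 2014827), had the smallest p of the H/ACA members in this comparison. It stood at 398, 508 and 514 FPKM with scramble, 213, 207 and 148 with shCREBBP.1027, 615, 512 and 577 with shCREBBP.3753 and 483, 471 and 458 with shCREBBP.572. The shCREBBP.1027 libraries were lower than all others, and it fell by 1.33 ± 0.14 (SE) with shCREBBP.1027 (limma, adjusted p = 3.7e-05). SNORA62, also called E2, comes from an intron of RPSA (chromosome 3, 39448204 to 39458082). Its values were 271, 331 and 364 FPKM with scramble, 157, 95.9 and 83.7 with shCREBBP.1027, 558, 424 and 475 with shCREBBP.3753 and 380, 435 and 485 with shCREBBP.572. The 3 groups of hairpin libraries did not overlap with scramble, 1 below and 2 above; it fell by 1.56 ± 0.21 with shCREBBP.1027 (limma, adjusted p = 1.6e-04), and with shCREBBP.3753 the difference of 0.59 ± 0.21 missed the threshold (adjusted p = 0.0529).

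SNORA70, whose sequence is shown above, lies within RPL10 (chromosome X, 153626089 to 153650063). It stood at 381, 432 and 428 FPKM with scramble, 150, 210 and 91.4 with shCREBBP.1027, 661, 602 and 778 with shCREBBP.3753 and 481, 435 and 714 with shCREBBP.572. In fragments this was 80, 97 and 320 with scramble and 42, 59 and 26 with shCREBBP.1027. The shCREBBP.1027 libraries lay below, and those of the other hairpins above, all scramble libraries. It fell by 1.53 ± 0.26 with shCREBBP.1027 (limma, adjusted p = 7.7e-04). The table also holds the related SNORA70B and SNORA70G, and reads may have been divided among such copies; the same holds for SNORA2A and SNORA2B, SNORA11 and SNORA11B, SNORA38 and SNORA38B, and SNORA80A, SNORA80B and SNORA80E. SNORA76C shares its row with SNORD104, a box C/D RNA, and this row stood at 302, 206 and 258 FPKM with scramble, 142, 121 and 78.5 with shCREBBP.1027, 426, 370 and 483 with shCREBBP.3753 and 241, 307 and 386 with shCREBBP.572. It is the 1 member row that carries a C/D name, and which of the 2 RNAs gave the reads cannot be told. The row fell by 1.18 ± 0.23 with shCREBBP.1027 (limma, adjusted p = 0.00191) and rose by 0.75 ± 0.23 with shCREBBP.3753 (adjusted p = 0.0305). The rise was lost without scramble replicate 2 or 3 or shCREBBP.3753 replicate 1 or 3, and without the filter on mean FPKM.

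The 3 largest falls of H/ACA members with shCREBBP.1027 were those of SNORA11B, SNORA69 and SNORA38B. SNORA69, within RPL39, rested on 2, 6 and 17 fragments with scramble and on 1, 0 and 0 with shCREBBP.1027 (95% Poisson intervals, which cover counting error only, 0.0253 to 5.57 for 1 fragment and 0 to 3.69 for 0). It had 7, 11 and 4 fragments with shCREBBP.3753 and 8, 2 and 7 with shCREBBP.572. The shCREBBP.1027 group thus held 1 fragment, and the fitted difference of -3.63 is no bound on the change. SNORA11B was listed at 44.8, 12.1 and 36.0 FPKM with scramble and at 0, 4.87 and 0 with shCREBBP.1027 (fitted difference -3.96, limma, adjusted p = 0.00224). SNORA38B had no zero: it stood at 31.8, 74.6 and 50.6 FPKM with scramble and at 7.85, 11.9 and 11.8 with shCREBBP.1027, and fell by 2.15 ± 0.46 (limma, adjusted p = 0.00321). The single H/ACA member that rose, SNORA2B, was listed at 0, 0 and 13.8 FPKM with scramble and at 30.2, 9.93 and 78.7 with shCREBBP.1027, where the groups overlap (fitted difference 3.62, limma, adjusted p = 0.0353). This call was lost without scramble replicate 1 or 2, without shCREBBP.1027 replicate 1 or 3, or without the filter on mean FPKM.

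**Figure D2:**
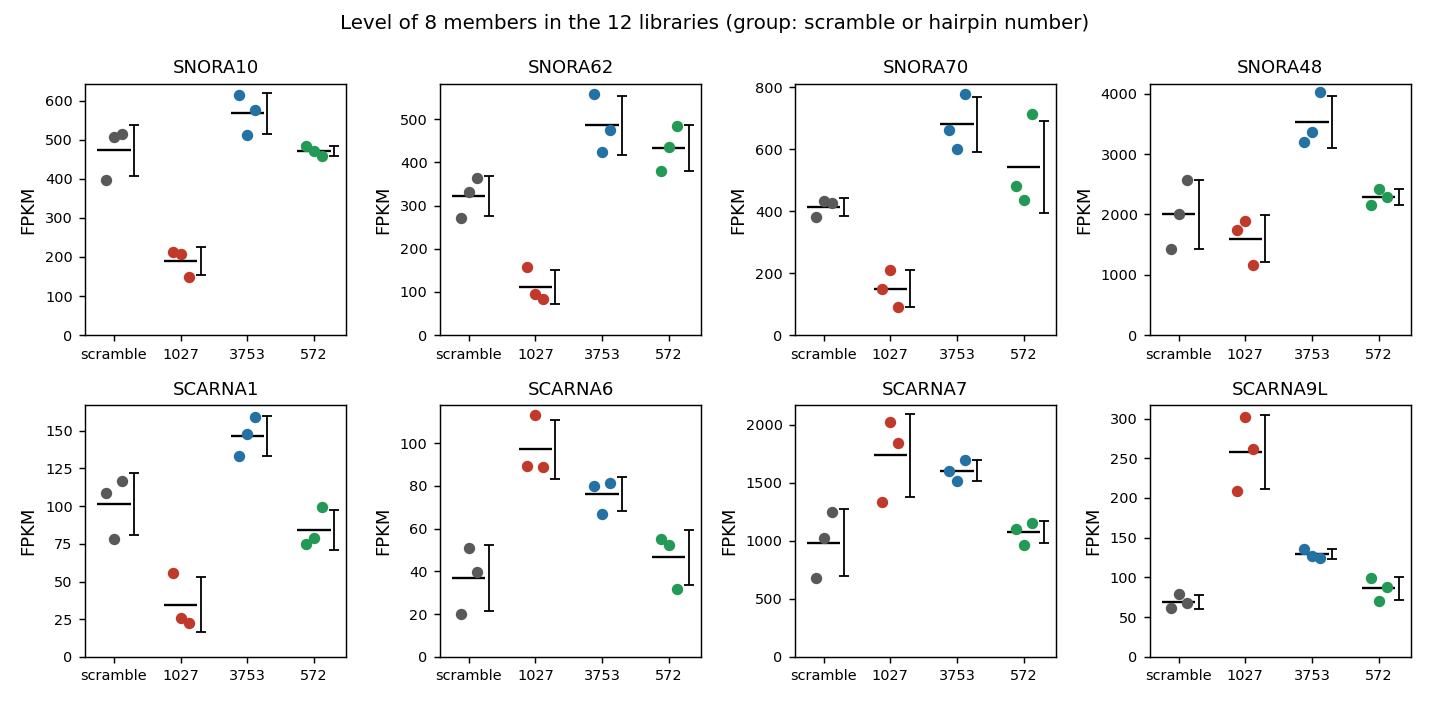
FPKM of 8 members in each of the 12 libraries, by group; the horizontal line is the mean of 3 libraries and the bar its SD. SNORA10, SNORA62, SNORA70 and SCARNA1 are lowest in the shCREBBP.1027 libraries, SNORA48 is highest with shCREBBP.3753, and SCARNA6, SCARNA7 and SCARNA9L are above scramble with shCREBBP.1027 and shCREBBP.3753.

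With shCREBBP.1027 the Cajal body RNAs differed among themselves by length and box. All 7 members of at least 200 nt were above 0 and 4 of them rose (median 0.69), whereas of the 12 under 200 nt 0 rose and 5 fell (median -0.35). The 4 with boxes C and D, all in the longer group, had 3 rises and a median of 0.76; the 8 with an ACA, all in the shorter group, had 0 rises, 3 falls and a median of -0.54. The 3 longer members outside the C and D group, SCARNA2, SCARNA9L and SCARNA17, were at 0.24, 1.87 and 0.51. No member with boxes C and D is short and no ACA member is long, so length and box cannot be told apart between these groups. The groups follow boxes at the ends of the RNA only and do not set C/D guides against H/ACA guides, since members with boxes C and D may hold both. The H/ACA class gives a different picture at this length: of its 3 members of at least 200 nt, SNORA53 and SNORA74B fell and SNORA58 did not pass (median -0.83). Lengths of SCARNA17 (421 nt in RefSeq, 144 nt in GENCODE) and SNORA58 (236 and 137 nt) differ between annotations.

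**Figure D3:**
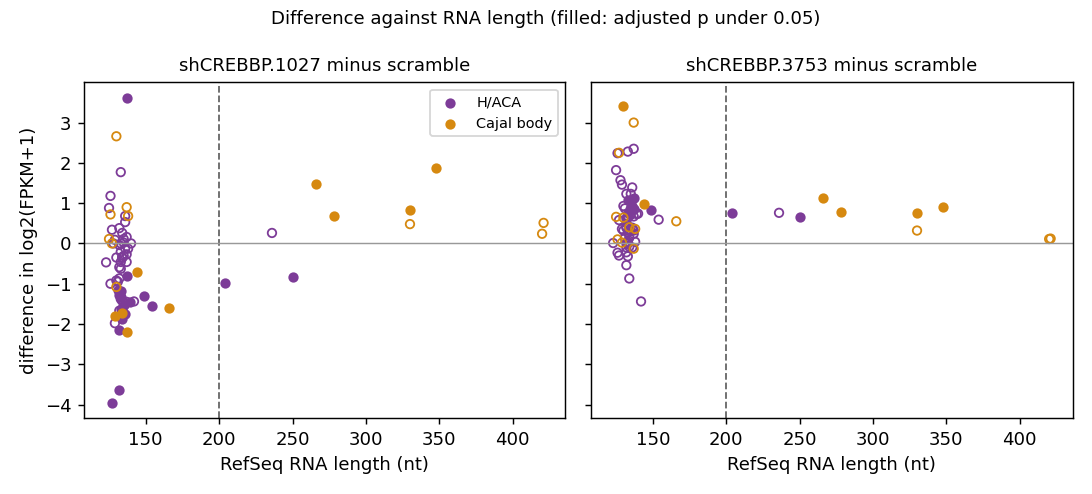
Difference in log2(FPKM + 1) from scramble against RefSeq length in nt for the 79 members, with shCREBBP.1027 (left) and shCREBBP.3753 (right); filled points have an adjusted p under 0.05, purple is H/ACA and orange is Cajal body, and the dashed line stands at 200 nt. With shCREBBP.1027 the 7 Cajal body members of at least 200 nt lie above 0 and 2 of the 3 H/ACA members of that length lie below it.

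SCARNA9L, a copy of the U2 guide SCARNA9 within EIF1AX (chromosome X, 20142636 to 20159966), had the smallest p of all members with shCREBBP.1027. It stood at 61, 79 and 68.3 FPKM with scramble, 209, 302 and 262 with shCREBBP.1027, 136, 127 and 125 with shCREBBP.3753 and 99.8, 70.8 and 88.1 with shCREBBP.572. The libraries of shCREBBP.1027 and shCREBBP.3753 lay above all scramble libraries and did not overlap with each other. It rose by 1.87 ± 0.15 with shCREBBP.1027 (limma, adjusted p = 5.3e-06) and by 0.90 ± 0.15 with shCREBBP.3753 (adjusted p = 0.00138), and the rise was larger with the first by 0.97 (adjusted p = 4.1e-04). Reads may have been divided between SCARNA9L and SCARNA9, which stands on a row of another gene.

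SCARNA6 and SCARNA5, known as U88 and U87, lie in ATG16L1 (chromosome 2, 234160217 to 234204453). SCARNA6 stood at 20.1, 50.8 and 39.5 FPKM with scramble, 89.5, 113 and 88.9 with shCREBBP.1027, 80.0, 66.9 and 81.2 with shCREBBP.3753 and 55.2, 52.4 and 31.9 with shCREBBP.572. It rose by 1.47 ± 0.29 with shCREBBP.1027 (limma, adjusted p = 0.00211) and by 1.12 ± 0.29 with shCREBBP.3753 (adjusted p = 0.0139), both without overlap with scramble. SCARNA5 stood at 81.7, 155 and 151 FPKM with scramble, 246, 191 and 171 with shCREBBP.1027, 206, 197 and 236 with shCREBBP.3753 and 187, 166 and 203 with shCREBBP.572. All 9 hairpin libraries were above the scramble libraries, and the rises of 0.69 ± 0.22 and 0.77 ± 0.22 with the first 2 hairpins passed (limma, adjusted p = 0.0264 and 0.0203) while 0.57 ± 0.22 with shCREBBP.572 did not (adjusted p = 0.0911). Without shCREBBP.1027 replicate 1 or 2 the call of SCARNA5 with that hairpin was lost. That call was also lost without the filter on mean FPKM and with a separate spread per group. The calls of SCARNA5 and SCARNA6 with shCREBBP.3753 were lost without replicate 3 of that hairpin and with a separate spread per group.

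SCARNA7, or U90, a guide for the U1 small nuclear RNA, lies in KPNA4 (chromosome 3, 160212783 to 160283378). It stood at 677, 1028 and 1249 FPKM with scramble, 1333, 2028 and 1846 with shCREBBP.1027, 1602, 1512 and 1693 with shCREBBP.3753 and 1103, 968 and 1153 with shCREBBP.572. It rose by 0.84 ± 0.21 with shCREBBP.1027 (limma, adjusted p = 0.00814) and by 0.75 ± 0.21 with shCREBBP.3753 (adjusted p = 0.0201). The second call was lost without shCREBBP.3753 replicate 1 or 3, without the filter on mean FPKM and with a separate spread per group. SCARNA10, or U85, which guides both kinds of modification on the U5 small nuclear RNA, stood at 400, 665 and 623 FPKM with scramble and at 603, 943 and 797 with shCREBBP.1027. The groups overlap and the difference of 0.48 ± 0.21 did not pass (limma, adjusted p = 0.0965). SCARNA2, which is transcribed from a gene of its own and guides modification of U2, stood at 316, 438 and 492 FPKM with scramble, 445, 515 and 491 with shCREBBP.1027, 459, 431 and 432 with shCREBBP.3753 and 362, 330 and 295 with shCREBBP.572, and passed with no hairpin against scramble.

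The 5 Cajal body members that fell with shCREBBP.1027 were SCARNA1, SCARNA3, SCARNA4, SCARNA14 and SCARNA18, all under 200 nt. SCARNA1, within PPP1R8 (chromosome 1, 28157252 to 28178183), stood at 109, 78.0 and 117 FPKM with scramble, 55.6, 25.8 and 22.8 with shCREBBP.1027, 133, 148 and 159 with shCREBBP.3753 and 75.0, 78.6 and 99.7 with shCREBBP.572. The shCREBBP.1027 libraries lay below and the shCREBBP.3753 libraries above all scramble libraries; it fell by 1.61 ± 0.27 with the first (limma, adjusted p = 7.9e-04), and the difference of 0.55 ± 0.27 with the second did not pass (adjusted p = 0.158). SCARNA18 had 3, 11 and 18 fragments with scramble, 2 in each shCREBBP.1027 library, 17, 8 and 19 with shCREBBP.3753 and 15, 7 and 12 with shCREBBP.572. It fell by 1.73 ± 0.48 (limma, adjusted p = 0.0143), which was no longer called without scramble replicate 2. SCARNA3 stood at 39.4, 23.2 and 24.2 FPKM with scramble, 16.5, 15.8 and 18.3 with shCREBBP.1027 and 52.2, 51.9 and 64.5 with shCREBBP.3753, and passed in opposite directions with the 2 hairpins (-0.70 ± 0.24, limma, adjusted p = 0.0394, and 0.97 ± 0.24, adjusted p = 0.0121). SCARNA4 and SCARNA14 fell by 1.81 ± 0.64 and 2.21 ± 0.71 (limma, adjusted p = 0.0432 and 0.0288). The rise of SCARNA3 with shCREBBP.3753 was lost without replicate 3 of that hairpin. Without the filter on mean FPKM the falls of SCARNA3, SCARNA4 and SCARNA14 were lost. The falls of SCARNA3, SCARNA4 and SCARNA14 were lost when single libraries were left out, and the count of Cajal body falls was 2 without scramble replicate 1, scramble replicate 3 or shCREBBP.1027 replicate 2, and 3 without shCREBBP.1027 replicate 1 or 3 or shCREBBP.3753 replicate 1 or 2.

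Of the other Cajal body members, SCARNA17, on a row shared with SNHG22, stood at 24.9, 40.6 and 37.1 FPKM with scramble and 49.3, 50.8 and 44.8 with shCREBBP.1027, without overlap (0.51 ± 0.20, limma, adjusted p = 0.0587). SCARNA21 ranged from 23.7 to 127 FPKM, SCARNA22 from 27.7 to 190 and SCARNA27 from 4.37 to 21.1 over the 12 libraries, and none of these passed against scramble. SCARNA22 lies in NSD2, a histone methyltransferase gene, and stood at 190, 82.5 and 162 FPKM with shCREBBP.572 against 27.7, 65.9 and 97.5 with scramble, which overlap. SCARNA11, SCARNA15, SCARNA20 and SCARNA23 held 23 of the 24 zeros of the class. SCARNA15 was listed at 0 in 10 libraries and at 2.92 and 26.4 FPKM in shCREBBP.3753 replicates 2 and 3. SCARNA23 was listed at 0 in the 3 scramble libraries and at 12.7, 2.61 and 23.5 FPKM with shCREBBP.3753 (limma, adjusted p = 0.0478), a call lost without any 1 of the scramble libraries, of shCREBBP.3753 replicates 1 and 3, of shCREBBP.1027 replicate 3 or of shCREBBP.572 replicate 1. It was also lost without the filter on mean FPKM and with 5 in place of 1 added to FPKM.

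With shCREBBP.3753 both classes leaned upward. Of the H/ACA members 10 rose and 0 fell, and 49 of 60 lay above 0 (81.7%, against 53.3% of all tested rows). The share that rose, 16.7%, was close to the 16.1% of all rows, while the median of 0.61 was above the 0.03 of all rows. Falls were called for 13.2% of all rows; at an unadjusted p under 0.05, 19 H/ACA members were higher (31.7%, against 22.9% of all rows) and 0 were lower (against 18.3%). Of the Cajal body members 6 rose (31.6%) and 0 fell, with a median of 0.64 and 18 of 19 above 0. The shCREBBP.3753 libraries lay above all scramble libraries for 16 H/ACA members (26.7%, against 25% of all rows) and 8 Cajal body members (42.1%). Without shCREBBP.3753 replicate 3 the rises were 2 H/ACA and 1 Cajal body, and without scramble replicate 1 there were 6 H/ACA rises.

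SNORA48, from EIF4A1 (chromosome 17, 7465309 to 7482391), stood at 1424, 2012 and 2563 FPKM with scramble, 1745, 1892 and 1161 with shCREBBP.1027, 3202, 3365 and 4025 with shCREBBP.3753 and 2156, 2421 and 2297 with shCREBBP.572. The shCREBBP.3753 libraries were above all others, with a rise of 0.85 ± 0.22 (limma, adjusted p = 0.0139) that was lost without replicate 3 of this hairpin. The rise was also lost without the filter on mean FPKM and with a separate spread per group. SNORA55, within the PABPC4 locus, stood at 57.9, 33.2 and 73.8 FPKM with scramble and 104, 115 and 126 with shCREBBP.3753, and rose by 1.12 ± 0.28 (limma, adjusted p = 0.0113) under every alternative run. SNORA33, within RPS12, stood at 71.5, 129 and 148 FPKM with scramble and 240, 190 and 288 with shCREBBP.3753 (1.08 ± 0.32, limma, adjusted p = 0.0244). SNORA80B, within ODC1, stood at 198, 348 and 364 FPKM with scramble and 681, 436 and 600 with shCREBBP.3753 (0.94 ± 0.25, limma, adjusted p = 0.0160). The calls of SNORA33 and SNORA80B were lost without shCREBBP.3753 replicate 1 or 3, and that of SNORA33 also without scramble replicate 1 or without the filter on mean FPKM.

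SNORA53, at 250 nt the longest H/ACA member, moved both ways. It stood at 594, 929 and 911 FPKM with scramble, 542, 424 and 388 with shCREBBP.1027, 1066, 1158 and 1610 with shCREBBP.3753 and 784, 755 and 852 with shCREBBP.572. The first hairpin lay below and the second above all scramble libraries. SNORA53 fell by 0.83 ± 0.20 (limma, adjusted p = 0.00671) with the first and rose by 0.66 ± 0.20 (adjusted p = 0.0280) with the second. The rise was lost without scramble replicate 1 or shCREBBP.3753 replicate 3, without the filter on mean FPKM and with a separate spread per group. SNORA31 shares its row with TPT1, an abundant messenger RNA that hosts it. That row stood at 920, 1097 and 1311 FPKM with scramble, 855, 947 and 796 with shCREBBP.1027 and 1395, 1248 and 1480 with shCREBBP.3753, and passed with no hairpin against scramble.

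**Figure D4:**
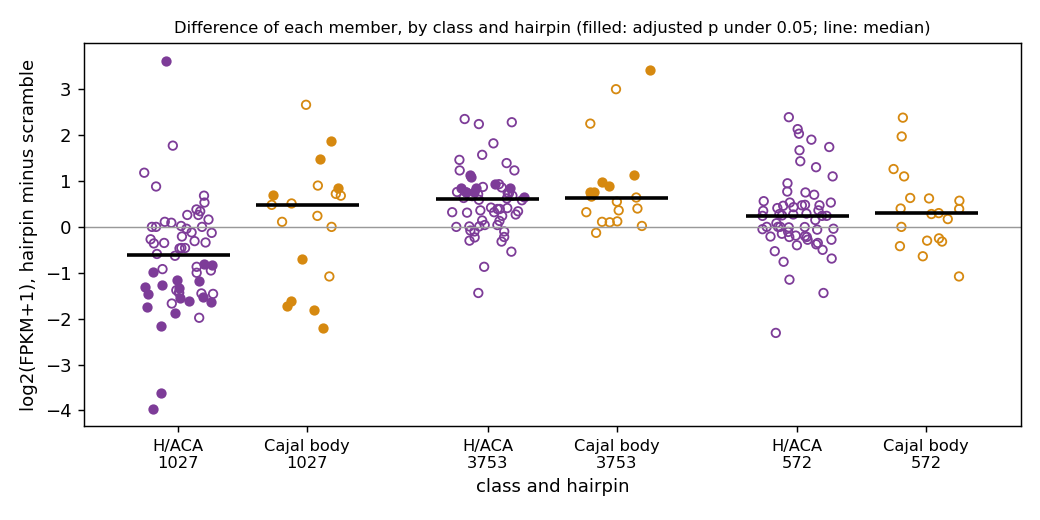
Difference in log2(FPKM + 1) from scramble for each of the 60 H/ACA and 19 Cajal body members, by hairpin; filled points have an adjusted p under 0.05 and black lines are medians. From left to right, the H/ACA median is -0.61, 0.61 and 0.24 and the Cajal body median is 0.48, 0.64 and 0.30.

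With shCREBBP.572 no member passed the limma threshold in either direction, against 8.99% of all rows higher and 10.8% lower. At an unadjusted p under 0.05, 5 H/ACA members were higher and 2 lower, and 4 Cajal body members were higher and 1 lower, against 16.2% of all rows higher and 16.4% lower. The medians were 0.24 and 0.30, against 0.01 over all rows, and fitted differences ran from -2.31 to 2.39. Weighting the libraries by limma's array weights gave 4 H/ACA rises, 3 H/ACA falls, 3 Cajal body rises and 1 fall. The shCREBBP.572 libraries lay above all scramble libraries for 5 H/ACA members (8.33%, against 16.6% of all rows) and 2 Cajal body members, and below for 1 of each (against 15.6% of all rows). SNORA16B, the member nearest the limit of 1 FPKM, was listed at 3.83 and 13.2 FPKM in shCREBBP.572 replicates 1 and 2 and at 0 in the other 10 libraries.

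The mean of the 3 hairpins hid these opposite directions. Of the H/ACA members 1 rose (SNORA80B, 0.74, limma, adjusted p = 0.0215) and 1 fell (SNORA10, -0.35, adjusted p = 0.0468), against 11.5% and 14.6% of all rows, with a median of -0.03. Of the Cajal body members 4 rose and 0 fell: SCARNA5 by 0.68, SCARNA6 by 0.99, SCARNA7 by 0.58 and SCARNA9L by 1.02 (limma, adjusted p = 0.0165, 0.0106, 0.0273 and 2.0e-04). Taking the 9 hairpin libraries as 1 group left 0 of these 6 calls. With a separate spread per group only the SCARNA9L call was kept. Without a filter the calls of SNORA10, SNORA80B and SCARNA7 were lost. The SNORA10 call was also lost with the replicate block or quantile normalization, and without any 1 of scramble replicates 2 and 3 and the libraries of shCREBBP.3753 or shCREBBP.572. The SNORA80B call was lost without scramble replicate 1, and the SCARNA7 call without scramble replicate 1 or 2.

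The hairpins were also set against each other in the same fit, so that the scramble libraries enter the spread but not the differences. An F test found a difference among them for 32 of 60 H/ACA members and 9 of 19 Cajal body members, against 56.4% of all rows. With shCREBBP.3753, 30 H/ACA members were higher than with shCREBBP.1027 (50%, against 25.3% of all rows) and 0 were lower (against 15.3%), with a median of 1.13. With shCREBBP.572, 21 were higher than with shCREBBP.1027 (35%, against 23.9%) and 1 (SNORA5C, on a row shared with TBRG4) was lower (against 17.6%), with a median of 0.94. The Cajal body members split: 5 higher and 1 lower in the first of these comparisons, and 3 higher and 6 lower in the second. All 7 Cajal body members of at least 200 nt were lower with shCREBBP.572 than with shCREBBP.1027, and 5 of them passed. Between shCREBBP.572 and shCREBBP.3753, 8 H/ACA and 3 Cajal body members were lower with the first (against 18% of all rows) and 1 H/ACA member, SNORA16B, was higher (against 14.7%). SNORA62 was higher by 2.15 ± 0.21 with shCREBBP.3753 and by 1.98 ± 0.21 with shCREBBP.572 than with shCREBBP.1027 (limma, adjusted p = 1.5e-05 and 2.7e-05). These 3 comparisons share libraries in pairs and are not independent.

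Host gene rows were set beside their guides. For 68 members the row of a host gene was found, on 60 rows, from the neighbours that RefSeq gives on GRCh38. Over all 68 pairs, medians with shCREBBP.1027 were -0.47 for members and 0.10 for hosts, and 33 pairs had the same sign. With shCREBBP.3753 they were 0.65 and 0.09, and 38 pairs had the same sign. Called members have medians away from 0 by selection, whereas their hosts were not selected. Of all tested rows, 22.7% fell with shCREBBP.1027 and 16.1% rose with shCREBBP.3753. Among the 20 members with a host row that fell with shCREBBP.1027, the median difference was -1.61 and that of the hosts 0.09; 1 host row fell too, SLC25A3, the mitochondrial phosphate carrier and host of SNORA53, at -0.69 (limma, adjusted p = 1.1e-04). RPS2 was at -0.16 while SNORA10 was at -1.33, RPSA at 0.10 while SNORA62 was at -1.56, and RPL10 at -0.14 while SNORA70 was at -1.53 (adjusted p of the hosts 0.290, 0.592 and 0.417). Among the 15 members with a host row that rose with shCREBBP.3753, the medians were 0.85 for members and 0.18 for hosts, and in 5 pairs the host row rose too. These were on 4 host rows: ATG16L1 for both SCARNA5 and SCARNA6, RFWD2 for SCARNA3, SLC25A3 for SNORA53 and ATP6V0E1 for SNORA74B. POLA1, host of SCARNA23, fell by 0.61 (limma, adjusted p = 8.7e-04). Across the 68 pairs Spearman's rho between member and host differences was 0.06 for shCREBBP.1027, 0.11 for shCREBBP.3753 and -0.09 for shCREBBP.572, a description over pairs that share libraries and in part hosts. KPNA4, host of SCARNA7, rose by 0.55 with shCREBBP.1027 (adjusted p = 5.1e-04), whereas ATG16L1, host of SCARNA5 and SCARNA6, was at 0.30 (adjusted p = 0.0695).

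**Figure D5:**
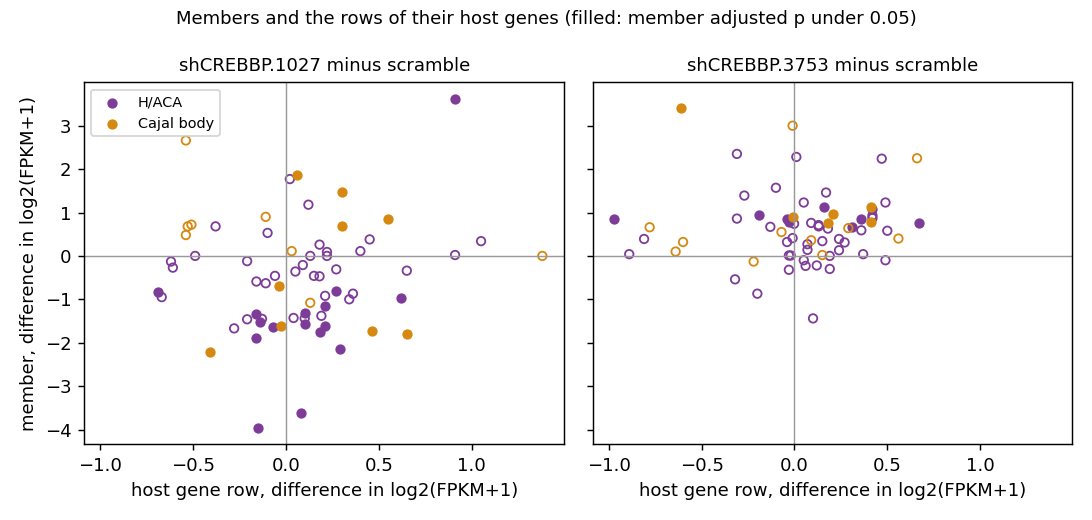
Difference in log2(FPKM + 1) of each member (vertical) against that of the row of its host gene (horizontal) for 68 pairs, with shCREBBP.1027 (left) and shCREBBP.3753 (right); filled points are members with an adjusted p under 0.05, purple is H/ACA and orange is Cajal body. With shCREBBP.1027 host differences run from -0.69 to 1.38 (median 0.10). Members run from -3.96 (SNORA11B) to 3.62 (SNORA2B), both of them rows with zeros. With shCREBBP.3753 the host median is 0.09.

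Noncoding host genes were listed separately, since some of their rows also carry the names of the guides within them. The list also holds CWF19L1, which encodes a protein. Of 19 rows, 5 rose and 6 fell with shCREBBP.1027 (median -0.42), 8 rose and 0 fell with shCREBBP.3753 (median 0.50), and 0 rose and 1 fell (SNHG9) with shCREBBP.572 (median -0.15). The 5 that rose with shCREBBP.1027 were SNHG1, SNHG9, SNHG10, ZFAS1 and the protein-coding CWF19L1, at 0.50 to 1.33. CWF19L1, on a row with several names, is also among the 8 that rose with shCREBBP.3753. SNHG16 fell by 0.96 with shCREBBP.1027 and rose by 0.62 with shCREBBP.3753 (limma, adjusted p = 7.8e-05 and 0.00248). GAS5, a growth arrest transcript that holds many C/D guides, is on a row with other names. That row rose by 1.60 with shCREBBP.3753 (limma, adjusted p = 0.0243). It stood at 580, 198 and 190 FPKM with scramble and 851, 568 and 1271 with shCREBBP.3753, which overlap. Of the 12 rows that also carry a guide's name, 2 rose and 4 fell with shCREBBP.1027 (median -0.45); of the 7 that do not, 3 rose and 2 fell (median 0.19). Of 35 protein-coding host rows 1 rose (EEF1B2) and 6 fell with shCREBBP.1027, and 6 rose and 1 fell (TNPO2) with shCREBBP.3753. With shCREBBP.572, 1 rose (RPL12) and 0 fell. The falls with shCREBBP.1027, except EIF4G2, and the rises of RCC1, RPL3 and RPL4 with shCREBBP.3753 were on rows with several names. Which transcript gave the reads there cannot be told. RCC1 shares its row with SNHG3, so that row is in both lists. Over all tested rows, 16.5% rose and 22.7% fell with shCREBBP.1027, 16.1% and 13.2% with shCREBBP.3753, and 8.99% and 10.8% with shCREBBP.572.

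Genes for the proteins of the guide particles were read from 2 lists. For comparison, 16.5% of all tested rows rose and 22.7% fell with shCREBBP.1027. The shares were 16.1% and 13.2% with shCREBBP.3753, and 8.99% and 10.8% with shCREBBP.572. Of 7 rows for core proteins, 3 rose and 1 fell with shCREBBP.1027 (median 0.32), 0 rose and 2 fell with shCREBBP.3753 (median 0.01), and 0 passed with shCREBBP.572 (median 0.004). GAR1, NOP10 and NHP2L1, the first 2 of them H/ACA proteins and the last a C/D protein, rose by 0.74 ± 0.11, 0.68 ± 0.17 and 0.53 ± 0.12 with shCREBBP.1027 (limma, adjusted p = 2.9e-04, 0.00785 and 0.00466). DKC1, the pseudouridine synthase, was on a row shared with other names and fell by 0.53 ± 0.17 with shCREBBP.1027 (limma, adjusted p = 0.0256). That row is also among the protein-coding host rows above. FBL, the methyltransferase of C/D particles, and NHP2 fell by 0.32 ± 0.10 and 0.30 ± 0.10 with shCREBBP.3753 (adjusted p = 0.0296 and 0.0414). Of 20 rows for assembly, trafficking and maturation factors, 4 rose (ZNHIT3, RPAP3, TGS1 and DIS3) and 2 fell (PIH1D1 and NOLC1) with shCREBBP.1027, 0 rose and 5 fell with shCREBBP.3753, and 0 rose and 3 fell (NUFIP1, PHAX and PARN) with shCREBBP.572. Host and protein genes named here were picked after their values were seen. WRAP53, which brings guides to the Cajal body, fell by 0.47 with shCREBBP.3753 (adjusted p = 0.0358), and COIL, the coilin scaffold of that body, passed with no hairpin.

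Short RNAs that are not guides were read beside these results, because the labelled size limit bears on all of them. Of 11 such rows under 200 nt, 5 fell and 1 rose with shCREBBP.1027, with a median of -0.78. Of all tested rows 22.7% fell and 16.5% rose with this hairpin. Those that fell were the minor spliceosome RNAs RNU11 (-1.58), RNU12 (-2.37) and RNU4ATAC (-1.74), with adjusted p of 6.3e-05, 1.4e-04 and 0.00280 in limma, and RNU6-78P (-1.28) and the vault RNA VTRNA1-1 (-4.15), which each had a zero. RNVU1-19 rose and was listed at 0 in the 9 other libraries. These genes were named after their values were seen. With shCREBBP.3753 0 rose and 1 fell (median 0.000), against 16.1% and 13.2% of all rows. With shCREBBP.572 0 passed (median -0.37), against 8.99% of all rows higher and 10.8% lower. TERC, RPPH1 and RMRP, noncoding RNAs above 200 nt, were looked up by name outside the lists fixed beforehand. TERC, the telomerase RNA, has an H/ACA domain and is 451 nt long. It rose by 1.02 with shCREBBP.1027 (limma, adjusted p = 4.2e-05). RPPH1 (341 nt) rose by 1.17 with this hairpin (adjusted p = 0.001) and RMRP (270 nt) was at 0.09 (adjusted p = 0.811). With shCREBBP.3753 RMRP rose by 0.76 (limma, adjusted p = 0.0362), while TERC and RPPH1 were at -0.07 and 0.13 (adjusted p = 0.677 and 0.675). None of them passed with shCREBBP.572. Within the H/ACA members the medians with shCREBBP.1027 were -0.83 for the 3 of at least 200 nt and -0.59 for the 57 under 200 nt. The part of RNA length in these differences was not tested.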

How the data were processed

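Total RNA was sequenced in 12 libraries of MD901 cells, 3 for each of 4 groups. Per the submitters' processing notes, CASAVA 1.8, TopHat2, Cufflinks and hg19 were used; for the annotation and any use of strand in counting, nothing is given in the sources used here. The table does not state its unit: the deposited values were read as FPKM because the notes name Cufflinks. Each row is an assembled locus, and 725 rows carry several names. The depth in reads is unknown; relative depth came from the FPKM of 1 fragment at 3 lengths. A unit was accepted where every value lay within 0.03 of a whole number, and where a library's unit was a multiple of what its other lengths gave, it was divided accordingly.

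Values were tested as log2(FPKM + 1) with limma 3.58.1 in R 4.3.3 (group means, variance trend) over the 11757 rows whose mean reached 1 FPKM, with Benjamini-Hochberg adjustment over all rows and a threshold of 0.05. On simulated data of these 11757 rows, for the mean of the hairpins against scramble, 88% of log2 changes of 1 and 95% of changes of 2 were recovered. The changed rows were drawn from all rows, whose median standard error in this contrast was 0.11. It was 0.25 for H/ACA members without a zero. Recovery was not measured for members or for single hairpins. Alternatives were 11 other settings and leaving out each of the 12 libraries.

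Members, gene lists and tests were chosen with earlier results of these data known. Named were all Cajal body members, the H/ACA members with the highest mean FPKM, the largest called changes by contrast, the smallest p among hairpins and the member nearest the limit. The rows hold whole host loci, so RefSeq RNA lengths replaced interval lengths, and boxes were searched in GENCODE 29 transcripts in place of promoter windows. Of 79 members, 79 matched RefSeq and 77 a GENCODE sequence. Sequences are of GRCh38 and loci of hg19, counted from 1.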

Additional observations from a re-analysis of the deposited data

Results flagged for a closer look

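For 22 named members the limma F test among hairpins passed, and so did the difference between 2 hairpins given here. Only the largest such difference of each member is given. SCARNA4 and SCARNA14 passed without the F test (adjusted p = 0.0723 and 0.0698). Both were higher with shCREBBP.3753 than with shCREBBP.1027, by 1.83 and 2.08 (limma, adjusted p = 0.0399 and 0.0367). Against shCREBBP.1027, shCREBBP.3753 was higher on the log2(FPKM + 1) scale for SNORA11B (3.66), SNORA69 (3.53), SNORA70 (2.24), SCARNA1 (2.16), SNORA38B (2.16), SNORA62 (2.15), SNORA76C (1.93), SNORA33 (1.71), SCARNA3 (1.67), SNORA10 (1.60), SNORA53 (1.49), SNORA55 (1.39), SNORA48 (1.17) and SNORA31 (0.67). Against shCREBBP.1027, shCREBBP.572 was higher for SCARNA18 (2.13) and SNORA16B (2.03), and lower for SCARNA9L (-1.57), SCARNA21 (-1.10), SCARNA6 (-1.08), SCARNA17 (-0.81), SCARNA7 (-0.67) and SCARNA2 (-0.56). A member listed for 1 pair of hairpins may pass in another too. For example, shCREBBP.572 was also higher than shCREBBP.1027 for SNORA62 (1.98), SNORA70 (1.89) and SNORA10 (1.33). SCARNA9L was also lower with shCREBBP.3753 than with shCREBBP.1027 (-0.97). SNORA16B was listed at 0 in 10 libraries and SNORA11B and SNORA69 in 2 each, so their fitted values depend on the pseudocount. The 6 members listed as lower with shCREBBP.572 than with shCREBBP.1027 include 5 of at least 200 nt.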

How the results depend on the processing

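No value changed sign past the threshold under the alternatives run. Over 136 differences of named members, 2682 recomputed values kept their call, 103 lost it and 97 gained one. With all 3 hairpins averaged, H/ACA rises were 0 with the hairpin libraries as 1 group, no filter or a separate spread per group, 2 with quantile normalization or the replicate block and 4 with array weights; H/ACA falls were 0 with 1 group, no filter or quantile normalization, 2 with the block (neither of them SNORA10), 3 with a mean of at least 5 and 10 with array weights; Cajal body rises were 0 with 1 group, 2 with a separate spread and 8 with array weights. With shCREBBP.1027, H/ACA rises were 0 without a filter or on rows with 1 name and no zero, 2 with array weights and 3 with quantile normalization, H/ACA falls were 32 with array weights, Cajal body rises were 7 with quantile or upper-quartile scaling, and falls were 3 with array weights and 2 without a filter. With shCREBBP.3753, H/ACA rises were 3 without a filter and 16 with quantile normalization, and Cajal body rises 3 with a separate spread. With shCREBBP.572, H/ACA rises were 4 with array weights, 1 with a mean of at least 5, 2 with quantile and 1 with upper-quartile scaling; H/ACA falls were 3, 1 and 1 with array weights, quantile and upper-quartile scaling; Cajal body rises were 3, 2 and 1 with these, and falls 1 with array weights and 1 with a separate spread. The cause was not tested.

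When single libraries were left out, averaged H/ACA rises and falls each ran from 0 to 3, Cajal body rises from 3 to 5 and falls from 0 to 1. With shCREBBP.1027 H/ACA falls ran from 14 to 27, rises from 0 to 1, Cajal body rises from 3 to 6 and falls from 2 to 5. With shCREBBP.3753 H/ACA rises ran from 2 to 13 and Cajal body rises from 1 to 7, with 0 falls throughout. With shCREBBP.572 H/ACA rises and falls and Cajal body rises ran from 0 to 2 and falls from 0 to 1. The count among hairpins ran from 35 to 44. Same-numbered libraries deviated together weakly (correlations -0.06 to 0.13 over 18 pairs, 1 above 0.1), so the numbers were not taken as pairs; beyond the 2 averaged counts above, the replicate block moved no count by over 1.5 times. The F test among hairpins was not run with a separate spread or with the hairpin libraries as 1 group. Where fragments could be counted, SNORA5B rested on 15 and SNORA41 on 38 over the 12 libraries, which limits the precision of their values.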
